A study of Homo sapiens with 35 samples.

Results

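Chromosome 12 is described here by its contacts with the nuclear lamina in single cells of KBM7, a human leukaemia line. Its bins were taken by position and not by their values: every 100-kb bin of chromosome 12 with a value in all cells, which gave 1311 of the 1339 bins of the chromosome and 1311 of the 26584 bins used genome-wide. Those 26584 bins lie on 22 chromosomes, with X among them, with 9 and 22 entered as 9:22 and 22:9, and with none on chromosome 8. Chromosome 15 has only 520 of them. The 28 bins without values lie in 2 stretches around the centromere, 34900001 to 36300000 and 36400001 to 37800000. The short arm, up to 34900000, held 349 bins and the long arm, above 36300000, held 962. All positions are in build hg19, counted from 1.

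The nuclear lamina is a mesh of lamin filaments under the inner nuclear membrane, and lamin B1 is one of its main proteins. Chromatin that touches it forms lamina-associated domains, which tend to be poor in genes, weakly transcribed and late to replicate. In DamID, a bacterial adenine methylase (Dam) is fused to lamin B1, and the DNA it reaches is marked by methyl groups at GATC sites, which the enzyme DpnI then cuts.

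All cells belonged to 1 group: clone 5-5 of KBM7, labelled 2N, carrying the Dam fusion to LaminB1. Per the labels' protocols, they were treated with 0.5 nM Shield1 for 15 h to induce methylation. Single cells were then sorted from the smallest 2% that were double positive for the Fucci reporters, which mark cell-cycle phases. Of 35 labelled samples, 32 matched a column of the table, and samples 12, 14 and 16 were not analysed here. There was no control group and no cell with unfused Dam, so every comparison is between regions of the same cells. Nothing in the labels says that the cells came from separate cultures, so p-values measure only the spread between these cells of 1 clone.

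The values are ratios of the reads observed in a bin of a cell to the reads expected there (OE), and a bin with an OE of 1 or more was called in contact. In cells labelled 2N, a call can come from either copy of the chromosome and from any time in the 15 h of induction. Contact share is used for the percentage of the bins of a region that a cell had in contact. Contact frequency is used for the percentage of cells that had a given bin in contact. Whole reads recovered from the steps of the values ranged from 985 to 258225 per cell, of which 31 to 14229 lay on chromosome 12. Cells 13, 15 and 17 were shallow, with 985 to 1755 reads, and the OE worth of a single read there had a median of 13.7 to 24.9, so that any read made a contact. Results are therefore also given for the other 29 cells, called the deeper cells.

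Contacts of chromosome 12 were gathered in the middle of the long arm. The windows from 70 to 90 Mb held 15.3% of its bins and 38.9% of its contacts, while the windows from 0 to 10 Mb and from 110 to 120 Mb, with an equal number of bins, held 0.221%. The chromosome as a whole touched the lamina less often than the other used bins, and its long arm more often than its short arm. Its tips were almost free of contacts. The flanks of its centromere were close to the interior within 5 Mb, but higher within 2 Mb and lower within 10 Mb.

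**Figure D1:**
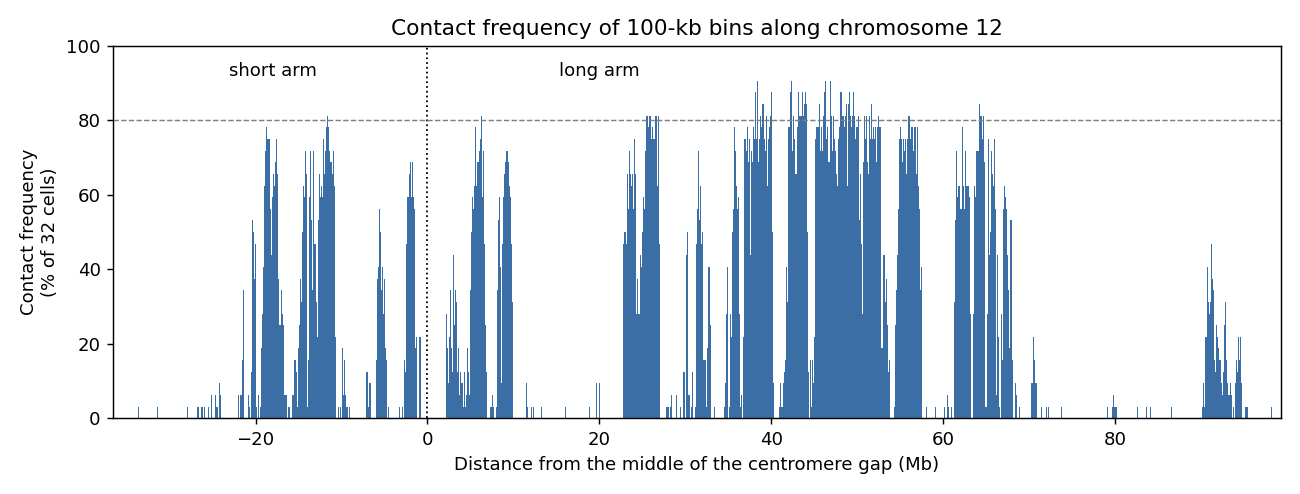
Contact frequency of each 100-kb bin (vertical axis, percentage of the 32 cells) against its distance from the middle of the centromere gap (horizontal axis, Mb; short arm to the left, long arm to the right). Bars cluster on the long arm and reach 90.6% at the highest; the dashed line marks 80%, which 74 bins reach.

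The contact share of chromosome 12 was 22.6% ± 8.77 of its bins, against 26.5% ± 8.13 of all other used bins (SD, n = 32 cells). Over cells it ran from 2.06% through a median of 24.6% to 37.1% on chromosome 12, against 3.53%, 26.8% and 36.1% on the other bins. The ranges overlapped widely between cells, but within a cell chromosome 12 was the lower in 28 of 32. The difference was -3.90 percentage points ± 5.40 (SD), with an adjusted p of 0.000286 by a two-sided sign-flip permutation test over cells, adjusted by Benjamini-Hochberg over 22 chromosomes. In the deeper cells the shares were 24.5% ± 6.67 and 28.8% ± 4.00, the difference was -4.27 points, and chromosome 12 was the lower in 26 of 29 (adjusted p = 0.00022, same permutation test). Most chromosomes of the table received a call, with a lower share on 54.5% of them and a higher share on 40.9%. Chromosome 12 ranked 11 of 22 by contact share.

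Chromosomes 10 and 11, with 1307 and 1314 used bins, are the closest to chromosome 12 in length. The share on chromosome 12 was 22.6% ± 8.77, against 22.5% ± 8.09 on chromosome 10 (SD, n = 32). Chromosome 12 was higher in 14 cells and lower in 18, and the difference of 0.079 points ± 6.70 did not pass the test (adjusted p = 0.951, permutation test adjusted over 231 pairs of chromosomes). Against the 29.2% ± 10.8 of chromosome 11 it was lower in 26 of 32 cells, by -6.58 points ± 7.41 (adjusted p = 8.45e-05, same permutation test). These pairs were compared after the shares had been seen.

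The cells differed in how far chromosome 12 departed from their other used bins. Among the deeper cells, chromosome 12 lay furthest above the other bins in cell 5, with 34.5% of its bins in contact, against 21.5% of the others. Cell 31 was second, with 37.1%, against 33.3%. The lowest were cell 25, with 10.9%, against 25.4%, and cell 2, with 12.7%, against 26.1%. Cells 23 and 34 lay close to these, at -13.1 points each, and the next lowest cell stood at -8.33 points.

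**Figure D2:**
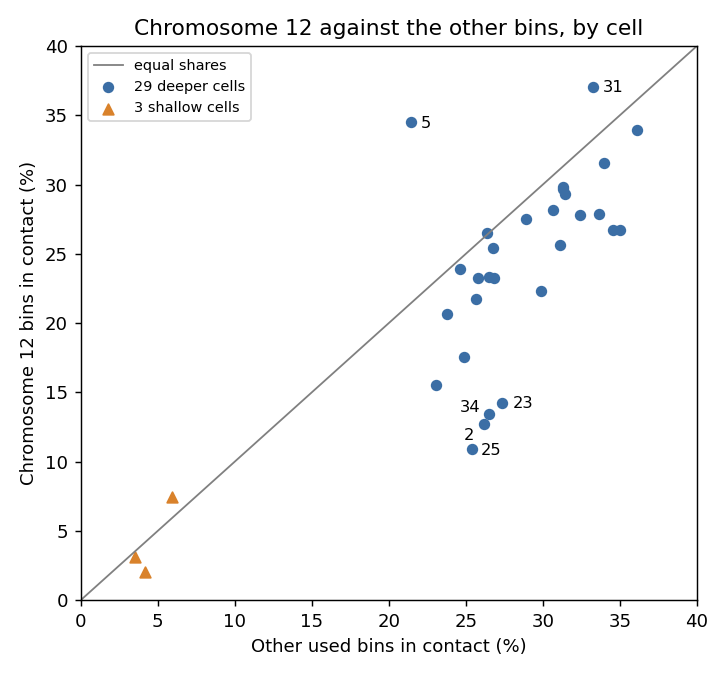
Contact share of chromosome 12 (vertical axis, % of its 1311 bins) against that of all other used bins (horizontal axis, %), 1 point per cell, with the line of equal shares. Of the 32 cells, 28 lie below the line; cells 5 and 31 lie furthest above it among the deeper cells, and cells 2, 23, 25 and 34 furthest below.

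The share of reads that fell on chromosome 12 moved with these departures. Cell 5 had 11.2% of its reads on chromosome 12 and cell 31 had 5.92%, against a median of 4.13% over the 29 deeper cells. Cells 25, 2, 23 and 34 had 1.82%, 2.1%, 2.21% and 2.21%. Over the deeper cells, the share of reads and the difference in contact share had a Pearson's r of 0.94 and a Spearman's rho of 0.92, and leaving out the 2 cells of most extreme read share gave an r of 0.94. Both measures come from the same reads, so this is a description.

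Reads in bins that were never in contact also differed between these cells. The mean OE of such bins on chromosome 12, divided by that of the never-contacted bins elsewhere in the same cell, was 2.43 in cell 5 and 1.46 in cell 31. The ratio was 0.605, 0.680, 0.758 and 0.933 in cells 2, 23, 25 and 34, and it had a median of 0.898 over the deeper cells, with a range of 0.534 to 2.43. Cells 5 and 31 were thus above the median, cells 2, 23 and 25 below it, and cell 34 slightly above it. Some of these ratios rest on few reads. In cell 2 the mean OE of such bins on chromosome 12 was 0.00425, where a single read was worth a median OE of 0.605. In cell 34 it was 0.00927, with 0.298 for a single read. The place of these 2 cells against the median is therefore uncertain. Over the deeper cells this ratio and the difference in contact share had an r of 0.78 and a rho of 0.70, and r was 0.55 when the 2 cells of most extreme ratio were left out. Both measures come from the same OE values, by which the never-contacted bins were also chosen, so this too is a description. Whether these cells differ in the number of copies of chromosome 12 was not tested. Without cell 5 the difference between chromosome 12 and the other bins was -4.45 points (adjusted p = 1.38e-05), and without cells 2, 23, 25 and 34 it was -2.53 points (adjusted p = 0.00353, permutation tests over the remaining cells). Depth in log10 reads had an r of 0.67 and a rho of 0.72 (r of 0.68 without the 2 cells of most extreme depth) with the contact share of chromosome 12 over the 29 deeper cells, but of 0.20 and 0.16 with its difference from the other bins.

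**Figure D3:**
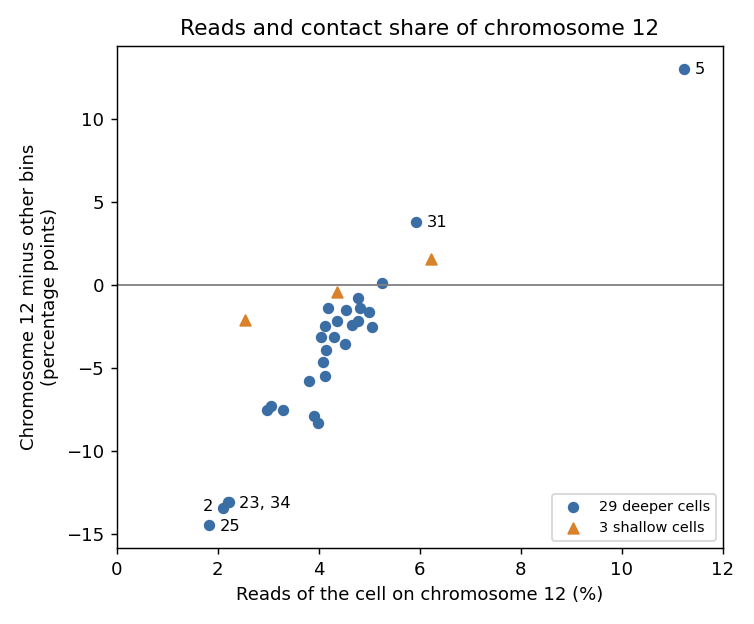
Chromosome 12 contact share minus that of the other bins (vertical axis, percentage points) against the percentage of the reads of a cell that lie on chromosome 12 (horizontal axis), 1 point per cell. Cell 5 stands alone at 11.2% of reads and 13.0 points, and cells 2, 23, 25 and 34 lie together at 1.82 to 2.21% of reads and -14.5 to -13.1 points.

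Most bins of chromosome 12 were seldom at the lamina and few were there in nearly every cell. In no cell were 621 of the 1311 bins in contact (47.4%), against 42.0% of all used bins. A count of 0 of 32 cells allows a frequency of up to 9.38% in such cells, a limit that covers counting error only. A further 230 bins (17.5%) were in contact in fewer than 20% of cells, and 386 (29.4%) in 20 to 80%, against 31.9% of all used bins in that middle range. At least 80% of cells held the contact in 74 bins (5.64%), against 8.43% of all used bins.

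The size of that upper class moved with the shallow cells and with the cells that had few reads on chromosome 12. In the 29 deeper cells, 144 bins (11.0%) reached 80%, against 14.2% of all used bins, and 624 bins (47.6%) were never in contact, against 42.2%. Without cells 2, 23, 25 and 34, 118 bins (9.00%) reached 80%, against 8.05% of all used bins. The share of chromosome 12 bins in this class was then above that of all used bins. The highest frequency of any bin was 90.6% (29 of 32 cells, Wilson 95% interval 75.8 to 96.8%, counting error only), and 5 bins had it. That interval takes no account of the choice of the highest bins. The bin at 77900001, among these 5, had an OE of at least 1.68 in every deeper cell. It was thus in contact in all 29 of them and missed only in the shallow cells.

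Against the contact shares of the cells, which gave 8.42 cells per bin on average, a bin was called in contact more often than expected at 15 or more cells and less often at 3 or fewer. The test was an exact two-sided Poisson-binomial test per bin, with Benjamini-Hochberg adjustment over all 26584 bins at a threshold of 0.05. It called 346 bins of chromosome 12 (26.4%) in contact more often, against 30.3% of all used bins. It called 785 (59.9%) in contact less often, against 54.5%. Both counts therefore stood on the side of fewer contacts, by a few percentage points.

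The long arm touched the lamina more often than the short arm. Its contact share was 24.9% ± 9.54, against 16.2% ± 8.49 on the short arm (SD, n = 32), with a lowest, median and highest cell of 2.29%, 27.3% and 40.7%, against 1.15%, 17.3% and 32.7%. The long arm was the higher in 31 of 32 cells, and the exception was cell 11, at -1.44 points. The difference was 8.69 points ± 6.81 (adjusted p = 1.89e-05, sign-flip permutation test adjusted over 17 chromosomes). In the deeper cells it was 9.46 points ± 6.70, in 28 of 29 cells (adjusted p = 2.12e-05, same permutation test). Among the chromosomes compared in this way, the long arm was called higher on 52.9% and lower on 29.4%, and the difference of chromosome 12 ranked 5 of 17.

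**Figure D4:**
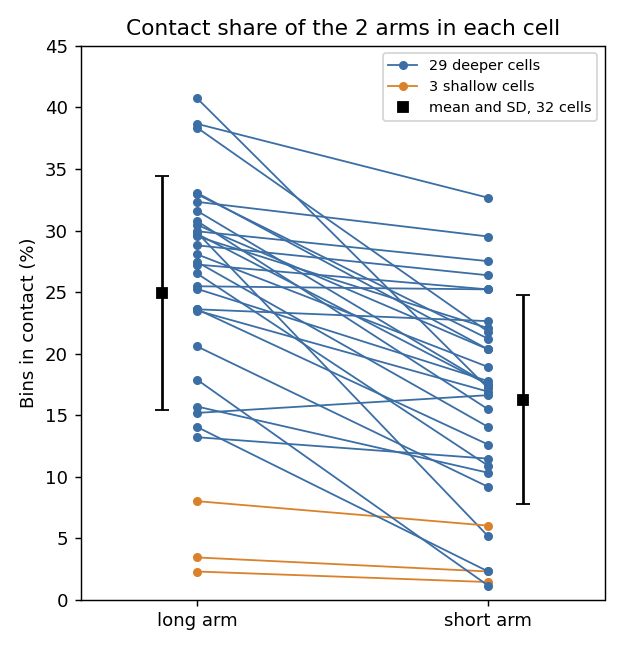
Contact share (vertical axis, % of bins) of the long and the short arm of chromosome 12, joined for each cell, with the mean and SD over 32 cells beside each arm. The lines run downward from long to short arm in 31 cells and upward in 1, cell 11.

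The arms also differed in the make-up of their bins. On the long arm 71 of 962 bins (7.38%) reached a frequency of 80%, against 3 of 349 (0.860%) on the short arm. Among the 29 deeper cells these counts were 132 (13.7%) and 12 (3.44%). Bins with more contacts than expected made up 29.4% of the long arm (283 bins), against 18.1% of the short arm (63 bins). Bins never in contact made up 45.7%, against 51.9%. Of all used bins, 8.43% reached 80% (14.2% in the deeper cells). Of the same bins, 30.3% had more contacts than expected and 42.0% were never in contact. Both arms thus stood on the side of fewer contacts, the long arm slightly and the short arm further.

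Outside the windows from 70 to 90 Mb, the long arm had a share of 16.3% ± 7.41, against 16.2% ± 8.49 on the short arm, and was the higher in 16 cells and the lower in 16 (difference 0.0883 points ± 6.63, SD, n = 32). In the deeper cells these values were 17.7% ± 6.35 and 17.6% ± 7.71. The windows were set aside after their values had been seen, and the short arm kept its own highest window, so the long arm had to come out lower and no test was made. Of the 762 remaining long-arm bins, 17 (2.23%) reached 80%, against 0.860% of the short-arm bins.

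The arms were close in gene number per bin. By the RefSeq table of GRCh38.p14, the long arm, from ALG10B onward, counts 736 protein-coding genes, or 7.65 per 10 used bins, against 288, or 8.25 per 10 used bins, on the short arm up to ALG10. ALG10 and ALG10B, paralogous glucosyltransferases of protein N-glycosylation, flank the centromere. Chromosome 12 as a whole has 1024 protein-coding genes in that table, 7.81 per 10 used bins, which ranked 7 of 19 chromosomes, while its contact share ranked 11 of the same 19. Over the 19 chromosomes Spearman's rho between gene number per bin and contact share was -0.84, a description in which all points share the same 32 cells. No gene was placed on a bin, because that table is of another build.

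Along the chromosome, the 10-Mb windows ran from almost no contact to contact at most of their bins. From 0 to 10 Mb it was 0.250% ± 0.622 (SD, n = 32), and 26 cells had no contact there. It was 18.2% ± 10.4 from 10 to 20 Mb and 27.5% ± 14.8 from 20 to 30 Mb, the highest window of the short arm, with a median of 28.5% and a range of 0 to 54%. The 72 measured bins from 30 to 40 Mb, which span the centromere, had 20.8% ± 14.2.

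The first part of the long arm was of similar or lower contact. The window from 40 to 50 Mb had 21.7% ± 10.7, and that from 50 to 60 Mb 9.34% ± 5.06, below the rest of the chromosome in all 32 cells. From 60 to 70 Mb the share was 25.5% ± 13.3.

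The windows from 70 to 90 Mb stood out. From 70 to 80 Mb the share was 53.3% ± 19.6, with a lowest, median and highest cell of 7%, 59% and 81%, and it was above the rest of the chromosome in all 32 cells. From 80 to 90 Mb it was 62.1% ± 21.6, with 2%, 70.5% and 87%, above the rest in 31 cells. The lowest values in both were those of shallow cells, and in the deeper cells the lowest was 33% in each window. These 2 windows held 54 of the 74 bins that reached 80%, and 141 of their 200 bins had more contacts than expected by the test above. Of all used bins, 8.43% reached 80% and 30.3% had more contacts than expected. The windows were singled out by their contacts, so these counts restate that choice.

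Beyond 90 Mb contacts thinned out. The share was 37.9% ± 17.4 from 90 to 100 Mb and 17.2% ± 9.45 from 100 to 110 Mb. From 110 to 120 Mb it was 0.406% ± 1.21, and 28 cells had no contact. All 100 bins of that window, like all 100 from 0 to 10 Mb, had fewer contacts than expected by the same test, against 54.5% of all used bins.

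The window from 120 to 130 Mb had few contacts in most cells and many in some. Its share was 7.56% ± 9.77, with a median of 2% and a highest cell of 34%, and 8 cells had none. The highest cells were few: 34% in cell 5, 29% in cell 4, 25% in cell 28, 22% in cells 19 and 24, and 19% in cell 26, followed by 16% in cell 31. Cell 5 is also the cell with the largest share of its reads on chromosome 12, whereas cell 4, with 3.8%, is not. No bin of the window exceeded a frequency of 46.9%. The last 39 bins, beyond 130 Mb, had 1.60% ± 3.30, with 22 cells at 0 and the highest, 15.4%, again in cell 5.

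**Figure D5:**
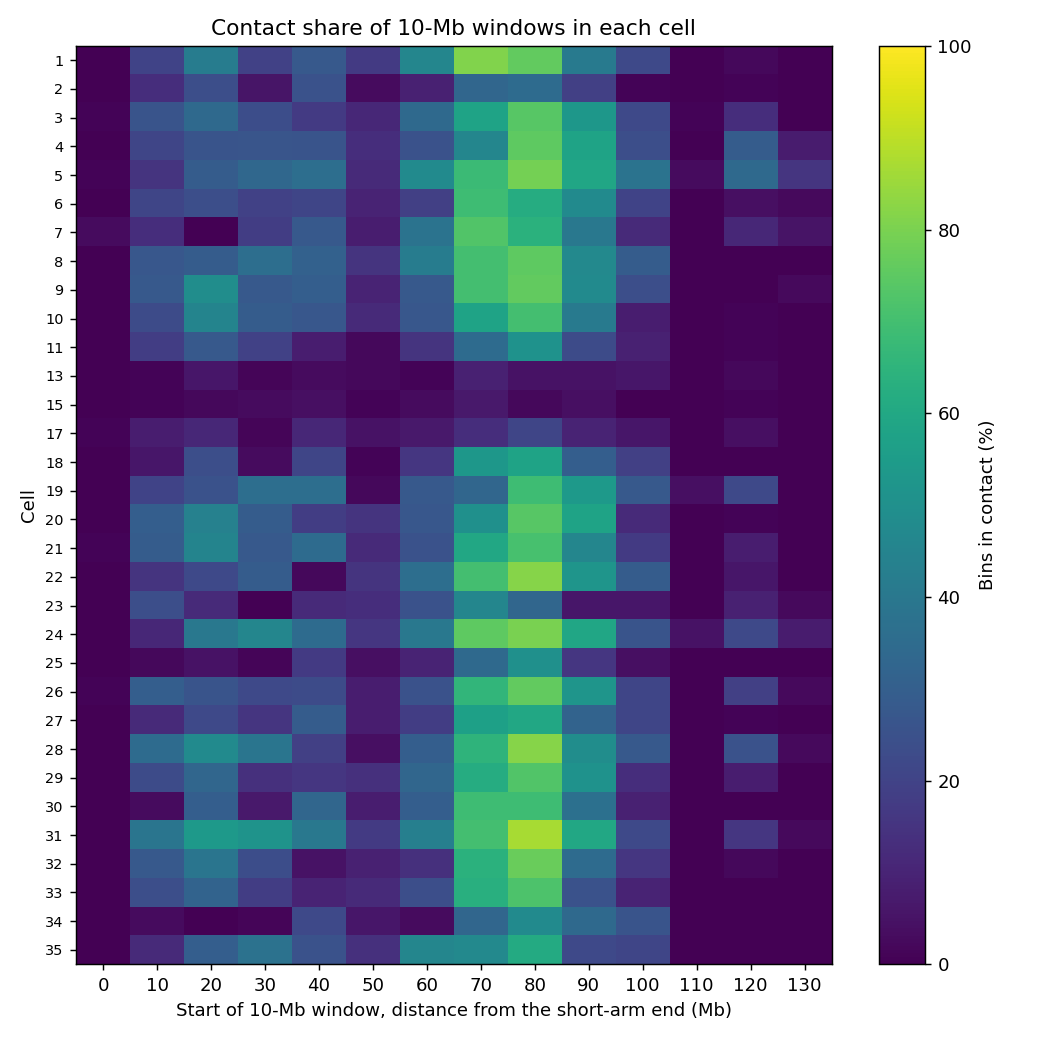
Contact share (colour, % of bins) of each 10-Mb window of chromosome 12 (columns, by start of the window in Mb from the short-arm end) in each of the 32 cells (rows). The columns at 70 and 80 Mb are brightest in nearly every row, those at 0 and 110 Mb are dark throughout, and the column at 120 Mb is bright in few rows.

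The longest stretch of stable contact over the 32 cells was 1 Mb long. From 78700001 to 79700000 all 10 bins reached a frequency of 80%, with a mean of 83.8% over all cells and 90% over the deeper cells. Its mean OE was 3.49 ± 1.74 (SD, n = 32), from 0.934 through a median of 3.41 to 10.5. All 10 bins were in contact in 19 cells, and no cell lacked contact altogether. Bins within 1 Mb on either side averaged 49.5%.

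The other stretches at this level were short. There were 40 in all, with a median length of 0.1 Mb, and 24 were single bins. The second longest, 83600001 to 84100000, had a mean frequency of 85.6% and an OE of 3.00 ± 1.47. The third, 84500001 to 84900000, had 83.6% and an OE of 2.99 ± 2.41. Both lay in surroundings that were themselves often in contact, at 75.5% and 79.5% within 1 Mb.

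The remaining 5 of the 8 longest were 0.3 Mb each. They began at 61000001, 74500001, 75400001, 85000001 and 99800001, with mean frequencies of 81.2 to 83.3%. The stretch at 61000001 was in contact at all 3 of its bins in 23 cells and at none in 4, but at none in only 1 of the 29 deeper cells. Apart from those at 61000001 and 99800001, the 8 longest stretches lay between 70 and 90 Mb.

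Without the shallow cells the stable stretches grew longer and their order changed. In the 29 deeper cells there were 45 of them, and the longest was 84500001 to 85800000, 1.3 Mb long with a mean frequency of 88.6%. It was followed by 78600001 to 79700000, of 1.1 Mb and 89.7%, and 83400001 to 84400000, of 1.0 Mb and 89.7%. The stretch around 79 Mb was thus among the 2 longest in both sets of cells.

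The stretches that never touched the lamina were longer. There were 86, of which 20 spanned at least 1 Mb, and the median length was 0.3 Mb. The longest, from 109400001 to 114700000, covered 5.3 Mb of the long arm with a mean OE of 0.0225 ± 0.0270 and 266 reads over all cells. In the deeper cells it ran from 107900001 and reached 6.8 Mb. The bins around it were rarely in contact too, at 1.25% within 1 Mb.

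The next longest never in contact were 122200001 to 125700000 (3.5 Mb) and 4200001 to 7600000 (3.4 Mb). Then came 3 stretches of 2.7 Mb, starting at 48900001, 51700001 and 131100001, of which the first 2 are separated by a single bin. The list ends with 55700001 to 58300000, of 2.6 Mb, and 115800001 to 118100000, of 2.3 Mb. Mean OE was between 0.0106 and 0.0291 in all 8. Each of them held reads in 17 to 24 cells. Among these 8, the stretch at 55700001 had the most contacted surroundings, at 27.3% within 1 Mb. In the deeper cells the second longest was instead the short-arm tip, 1 to 4100000 (4.1 Mb), and the stretch at 51700001 ran to 55200000 (3.5 Mb).

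Between these extremes lay stretches at the lamina in some cells only. Of 83 stretches with frequencies of 20 to 80%, the longest were 16300001 to 18900000 and 58400001 to 61000000, each 2.6 Mb, with mean frequencies of 52.4% and 52.0%. In the short-arm stretch at 16300001 cells ranged from 3.85% through a median of 53.8% to 92.3% of bins in contact. The long-arm stretch at 58400001 ranged from 0 through 51.9% to 100%. Cells therefore spread over nearly the whole scale, and few showed all or none: 2 cells had every bin of the second stretch in contact and 1 had none, while none of the deeper cells lacked contact there.

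The other 3 of the 5 longest were more often in contact. They ran from 96900001 to 98800000 (59.4%), from 90000001 to 91500000 (63.5%) and from 72300001 to 73700000 (67.0%). Their mean OE was 2.16 ± 1.86, 2.19 ± 1.74 and 2.15 ± 1.16 (SD, n = 32). All bins were in contact in 3, 4 and 2 cells, and none in 1, 2 and 1 (1, 1 and 0 of the deeper cells). This list also depended on the shallow cells. Over the 29 deeper cells there were 87 stretches of 20 to 80%, and only that at 58400001 stayed among the 5 longest. The others there began at 33100001, 44300001, 29700001 and 126100001.

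Changes between neighbouring bins were mostly small. Over 1308 pairs of adjacent bins the median change in contact frequency was 3.12 points, 621 pairs were equal and 56 changed by over 25 points. The sharpest border was at 21600000 on the short arm, where the bin before it was in contact in 65.6% of cells (OE 1.60 ± 1.46) and the bin after it in 3.12% (OE 0.203 ± 0.280). In the deeper cells these frequencies were 72.4% and 3.45%.

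The next 4 borders by size were on the long arm. At 72400000 the bins before and after had 21.9% and 75.0%, and at 80700000 they had 21.9% and 75.0% too. At 77500000 they had 31.2% and 78.1%. The border at 101700000 ran the other way, with 56.2% before it and 6.25% after it. The border at 72400000 lies 1 bin inside the stretch that begins at 72300001.

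The bins of highest mean OE depended on the shallow cells. Over all 32 cells they were the bins that start at 91600001, 85000001 and 86800001, with 4.47 ± 5.93, 4.24 ± 6.57 and 4.23 ± 5.82 (SD). Their highest single values, 28.9 to 29.8, exceeded their highest values in any deeper cell, which were 9.97, 8.08 and 14.0, and they ranked 45, 128 and 62 of the 1311 bins in the deeper cells. In those, the bin at 77900001 came first with 4.10 ± 2.24, from 1.68 to 9.81, and it was in contact in 29 of 32 cells. The bins at 87900001 and 79300001 followed with 3.97 ± 3.01 and 3.95 ± 2.87. All 6 lie between 77900001 and 91700000.

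Both tips of chromosome 12 were nearly free of contacts. Within 5 Mb of the ends, 1.73% ± 2.80 of 101 bins were in contact, against 24.4% ± 9.17 of the 1124 interior bins (SD, n = 32). The ends were the lower in all 32 cells, by -22.7 points ± 8.26 (adjusted p = 1.22e-05, permutation test adjusted over 22 chromosomes; 1e-05 is the smallest unadjusted p that the resamples can give). Ends were called lower than the interior on 81.8% of chromosomes and higher on 0.00%, so chromosome 12 shared this with most. In the deeper cells the shares were 1.88% ± 2.90 and 26.5% ± 6.80.

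The 2 tips were not alike in their spread. The short-arm tip had 0.125% ± 0.492 of its bins in contact, at most 2% in any cell, and 48 of its 50 bins were never in contact. The long-arm tip had 3.31% ± 5.56, from 0 through a median of 0 to 21.6%, and 33 of its 51 bins were never in contact. No test of the difference between the tips was made.

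The flanks of the centromere were close to the interior at the distance used. Within 5 Mb of the gap, 23.5% ± 14.3 of 86 bins were in contact, against 24.4% ± 9.17 of the interior bins. The flanks were the lower in 19 of 32 cells, and the difference of -0.912 points ± 8.31 did not pass the test (adjusted p = 0.542, permutation test adjusted over 21 chromosomes). Flanks were called lower on 61.9% of these chromosomes and higher on 23.8%. The 50 bins of the short-arm flank had 22.3% ± 15.8 and the 36 of the long-arm flank 25.2% ± 17.6.

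This comparison turned on its distance and on the contact limit. Within 2 Mb of the first gap the short arm gives 20 bins, and the long arm, where the second gap lies, gives 6. There the flanks were higher by 10.0 points (adjusted p = 0.00684, permutation test). Within 10 Mb they were lower, at -5.83 points (adjusted p = 3.94e-05). With contact called at any OE above 0 they were higher by 3.87 points (adjusted p = 0.0173), and at an OE of 2 or more lower, at -3.0 points (adjusted p = 0.0139, permutation tests as above). On the short arm the 20 bins nearest the gap had 37.5% ± 27.6, and cells ranged from 0 through a median of 47.5% to 85%. The 6 long-arm bins had 18.8% ± 22.3, below the interior in 22 cells. Within 10 Mb the short-arm flank lay at -13.3 points from the interior and the long-arm flank at 2.91 points. The pooled differences at 2 and 10 Mb thus had the direction of the short-arm flank only. No test of either flank alone was made.

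Contacted bins lay in runs, and the runs of chromosome 12 were of ordinary length. A cell had 63.2 ± 14.0 runs of adjacent contacted bins on chromosome 12, with a mean run of 467 kb ± 177 (SD, n = 32) and 504 kb ± 140 in the deeper cells. Chromosomes 10 and 11 had mean runs of 458 kb ± 176 and 492 kb ± 213, and chromosome 12 ranked 10 of 22. Joining runs across a single bin without contact lengthened the mean to 742 kb.

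The longest run of a cell was 2.91 Mb ± 1.61 on average, from 0.2 through a median of 2.75 to 7 Mb. It was longest in cell 31, from 82200001 to 89200000, then in cell 29 with 6 Mb and cell 22 with 5.4 Mb. It overlapped the windows from 70 to 90 Mb in 19 cells, all of them deeper. In cell 5 it lay elsewhere, from 126000001 to 129100000, in a region where most cells had few contacts. Chromosomes 10 and 11 had longer longest runs, 4.14 Mb ± 2.33 and 4.33 Mb ± 1.90; these were not tested against chromosome 12.

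Regions of chromosome 12 varied together from cell to cell. After the contact share of all other chromosomes in the same cell was subtracted, the long and the short arm had an r of 0.44 and a rho of 0.44 over the 29 deeper cells. Leaving out the 2 cells most extreme on the long arm gave an r of 0.42. The r of 0.44 ranked 6 of 17 chromosomes, between 0.049 on chromosome 1 and 0.68 on chromosome 11. The points share the reads and depth of their cells, and the value is a description.

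Neighbouring windows were the most alike by median, though the ranges overlapped widely. Among the 11 windows with a mean share of at least 5%, the 9 adjacent pairs had a median r of 0.57, from 0.19 to 0.77. The 17 pairs that were 2 to 3 windows apart had a median of 0.36, from -0.06 to 0.59. The 29 farther apart had 0.27, from -0.02 to 0.68. The highest r, 0.77 with a rho of 0.59, joined the windows from 80 and from 90 Mb, and it was 0.63 when the 2 most extreme cells were left out. The window from 30 Mb, which spans the centromere, was most like that from 80 Mb by r, with an r of 0.68 and a rho of 0.59. That order was not firm: the window from 20 Mb also had a rho of 0.59 with it. Without the 2 most extreme cells of each pair, r was 0.59 with the window from 80 Mb and 0.61 with that from 60 Mb. The lowest of the 55 pairs was that of the windows from 10 and from 40 Mb, with an r of -0.06 and a rho of -0.16.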

How the data were processed

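Single-cell LaminB1 DamID was analysed from 1 deposited table: it holds OE values, per the file headers the ratio of observed reads to an expectation, for 100-kb bins. Tools named in the submitters' processing notes are cutadapt and Bowtie2 2.1.0, with build hg19. The expectation, read filters and duplicate removal are not described in the sources used here. Whole reads were recovered from the steps of the values; 100% came out whole within 0.01 reads, which follows from the method. They are PCR reads and not molecules. Besides depth, they gave the share of reads on chromosome 12, the reads of named stretches and the thinned setting. The steps also gave the bins of low expected reads that 1 alternative left out. The main contact calls were made on the OE values.

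Chromosome 12, its windows, lists and the deeper cells were chosen with earlier results of these data known. Named regions are the 8 longest stretches at 80% or more and at 0%, the 5 longest at 20 to 80%, the 5 largest changes between adjacent bins and the 3 bins of highest OE. Cells named are the 2 highest and 2 lowest differences; others were named after their values were seen. Sign-flip tests used 100000 resamples. The centromere was taken as the longest gap without values. On chromosome 12 the 2 gaps are equal in length, and the first, 34900001 to 36300000, was used. Distances on the long arm therefore start before the second gap. Chromosome 15 was left out of the comparison of arms, against the plan, because its longest gap lies in the long arm. Planned gene lists were not run, since the gene table is of another build. The tests were tried on simulated data with bins drawn independently and differences between regions drawn from a normal distribution. Contacts in these cells lie in runs, which the simulated data lacked, so the trial does not settle how the tests behave here. Versions were Python 3.11.15, NumPy 2.4.6, pandas 2.3.3 and SciPy 1.17.1. Alternatives were other contact limits, cells, bins and distances, and thinning the deeper cells to 40279 reads.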

Additional observations from a re-analysis of the deposited data

How the results depend on the processing

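Of 88 values of the main results under other settings, 74 stayed within the limits set and 8 moved beyond them. A further 4 changed sign, and 2 passed the test in the same direction, which the main value had not. For tests the limit was direction and call, for counts of bins a fixed ratio to the main count, and for the mean run the SD between cells. These limits were wide: a fall from 621 to 426 bins never in contact, with OE of 0.5 or more, stayed within them. Of the 4 that changed sign, those within 2 Mb and with OE above 0 also passed the test. The lower share of chromosome 12 held under all 10 alternatives, at -4.92 to -2.53 points (adjusted p 1.38e-05 to 0.00484, permutation tests). The higher share of the long arm held under all 10, at 6.57 to 9.61 points, and the lower share of the ends under all 11, at -27.8 to -15.6 points. Bins in contact more often than expected numbered 292 to 419, and less often 625 to 831.

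The centromere flanks minus interior changed sign within 2 Mb (10.0 points), with OE above 0 (3.87), with OE of 0.5 or more (3.09, adjusted p = 0.108) and without cells 2, 23, 25 and 34 (0.0174, adjusted p = 0.991), and passed the test as lower within 10 Mb (-5.83) and with OE of 2 or more (-3.0, permutation tests). Bins at 80% or more numbered 284 with OE above 0, 176 with OE of 0.5 or more, 3 with OE of 2 or more, 144 without the shallow cells, 139 without the 8 cells of lowest contact share and 118 without cells 2, 23, 25 and 34. Bins never in contact fell to 38 with OE above 0, since 1 read then makes a contact, and the mean run was 742 kb with runs joined across 1 bin. Of 245 values for named stretches and windows, 205 stayed within the SD between cells and 40 moved. That SD was 0 for the stretches never in contact, so any contact there counted as moved. It was 27.0 to 34.8 points for the named stretches at 80% or more. A fall from 85.6% to 63.8% at 83600001, with OE of 2 or more, thus counted as staying. The tally therefore says little on how stable these values are. The settings without some cells of unusual read share were chosen after seeing the data. The cause of these changes was otherwise not tested.

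No paired analysis was possible because all cells form 1 group, so that no replicate number is shared between groups; regions were compared within cells throughout. Depth limits the shallow cells most, where 1 read exceeds the contact limit. No unfused Dam was used here, so accessibility enters the values as far as the expectation leaves it in.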
